A study of Mus musculus with 24 samples.

Results

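Myotubes kept in vehicle medium for 24 h were compared with day 7 myotubes, the cultures from which the treatment began. The comparison rests on 8 of the 24 libraries of the series, 4 in each group, taken by the group that the sample titles name. All libraries are polyadenylated RNA of C2C12, an established and clonal mouse myoblast line, so that every group is a model of 1 line. Day 7 myotubes had been held in 2% serum for 7 days. The vehicle group received medium with 1% ethanol and 2% serum for 24 h and was collected at day 8. The ethanol, the change of medium and the additional day in culture therefore cannot be told apart. The other groups of the series, used here for context and for the common estimate of spread, were day 0 myoblasts in 10% serum, myotubes in the same vehicle medium for 72 h (day 10), and myotubes given 100 µM dexamethasone, a synthetic glucocorticoid, for 24 h or 72 h. The labels number the replicates 1 to 4 without saying whether these were separate cultures. The limma p-values set the group difference against the spread within groups, pooled over all 24 libraries, and that spread may be technical.

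Myoblasts that are deprived of serum leave the cell cycle, fuse and assemble sarcomeres, and the contractile apparatus goes on maturing after fusion. A fraction of the cells in such a culture does not fuse and can divide again when growth conditions return. Genes of DNA replication and mitosis are read out mainly in such dividing cells, whereas genes of sterol synthesis and of amino acid synthesis follow the supply of lipids and amino acids in the medium through dedicated transcription factors.

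Few genes passed the test between the groups. Of 16257 genes tested with limma, 34 were called at an adjusted p under 0.05 (0.209% of genes tested), 16 higher in vehicle 24 h (0.0984%) and 18 lower (0.111%). Among the genes that fell were several with known parts in replication and mitosis (Mcm10, Sass6, Haus6, Gas2l3), the sterol synthesis enzyme Hsd17b7 and the folate enzyme Aldh1l2. Among those that rose were the muscle ubiquitin ligase subunit Asb2 and the thin filament gene Lmod2. An unadjusted p under 0.05 was reached by 2555 genes (15.7%), 1173 higher (7.22%) and 1382 lower (8.5%). The calls rested on single libraries: the count was 0 without day 7 replicate 1 or 4 or vehicle 24 h replicate 2 or 4, 188 without vehicle 24 h replicate 1 and 328 without vehicle 24 h replicate 3. Levels below are TPM, a length-scaled abundance that sums to the same total in every library, and folds are ratios of mean TPM. A log2-table difference is on the scale of the authors' normalised log2 table, on which the test was run and which understates folds.

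**Figure D1:**
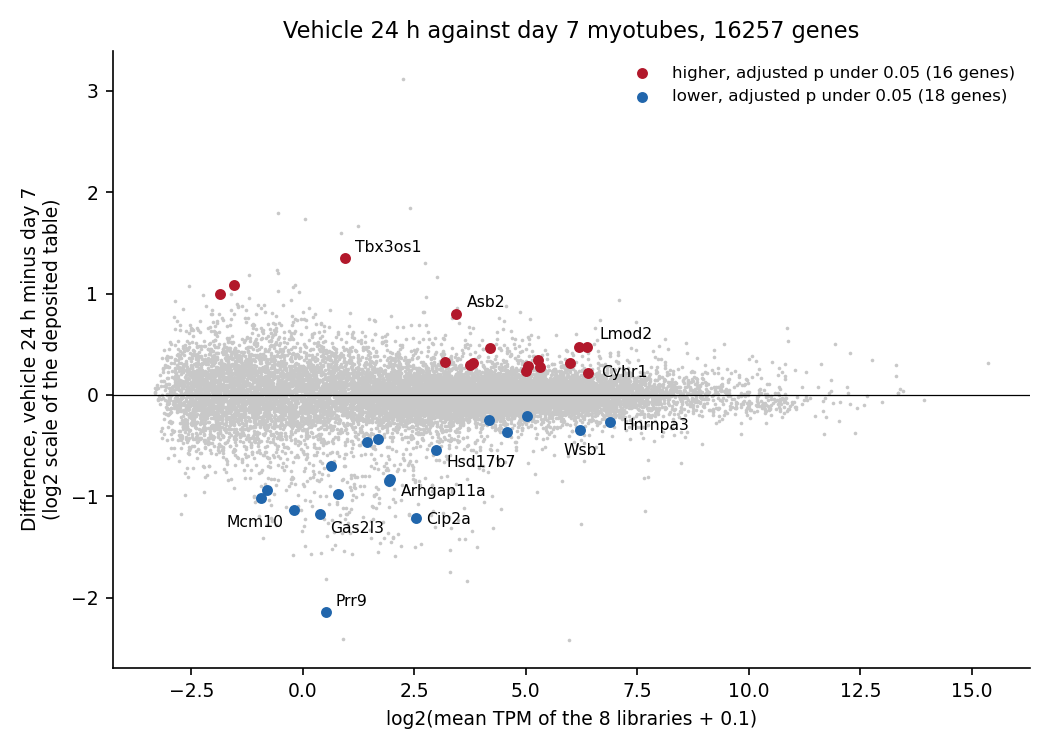
Difference between vehicle 24 h and day 7 (authors' log2 table, y axis) against expression level (log2 of the mean TPM of the 8 libraries plus 0.1, x axis) for the 16257 genes tested, 1 point per gene. Red points are the 16 genes called higher and blue points the 18 called lower; several grey points lie farther from 0 than the called genes because their libraries varied more.

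The promoters of 4 of the genes that fell are shown because they carry the letters searched for in the gene groups described further on: 3 are genes of dividing cells and Hsd17b7 stands for sterol synthesis. Each is the stretch of 250 bases upstream of the transcription start in RefSeq (GRCm38.p6), printed 5′ to 3′ on the gene's strand. Capitals mark, on either strand, CCAAT (the CCAAT box), TTTGAA (the core of the cell cycle homology region) and TTTNNCGC (an E2F-type site). For Hsd17b7 they mark CCAAT alone, since TCACNCCAC, a sterol element, was searched for and is not in this window. No marked stretch overlaps another. Arhgap11a lies at chr2:113848662-113848911, Mcm10 at chr2:5012792-5013041, Gas2l3 at chr10:89443968-89444217 and Hsd17b7 at chr1:169969206-169969455, all on the minus strand.
Arhgap11a: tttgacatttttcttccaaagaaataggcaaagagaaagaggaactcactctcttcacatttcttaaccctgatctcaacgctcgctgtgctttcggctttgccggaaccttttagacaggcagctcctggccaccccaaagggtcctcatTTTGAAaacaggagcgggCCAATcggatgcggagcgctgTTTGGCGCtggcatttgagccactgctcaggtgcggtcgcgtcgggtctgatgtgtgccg
Mcm10: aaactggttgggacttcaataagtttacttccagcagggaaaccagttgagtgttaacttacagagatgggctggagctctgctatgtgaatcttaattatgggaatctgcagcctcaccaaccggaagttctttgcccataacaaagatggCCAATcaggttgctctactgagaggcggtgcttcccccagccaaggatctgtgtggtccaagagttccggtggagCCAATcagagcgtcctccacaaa
Gas2l3: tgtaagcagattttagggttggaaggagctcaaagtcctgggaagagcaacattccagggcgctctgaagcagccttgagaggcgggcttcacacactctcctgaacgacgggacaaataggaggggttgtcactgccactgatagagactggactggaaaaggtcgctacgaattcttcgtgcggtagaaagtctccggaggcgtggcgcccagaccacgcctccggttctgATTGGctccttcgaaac
Hsd17b7: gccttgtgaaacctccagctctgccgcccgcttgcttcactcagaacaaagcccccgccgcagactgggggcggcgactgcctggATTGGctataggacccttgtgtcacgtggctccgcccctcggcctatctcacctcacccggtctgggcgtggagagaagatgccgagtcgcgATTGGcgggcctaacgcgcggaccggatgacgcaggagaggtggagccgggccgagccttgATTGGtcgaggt
Arhgap11a holds all 3 motifs, Mcm10 holds CCAAT at 2 places, Gas2l3 at 1 and Hsd17b7 at 3. Of 27025 promoters with 1 start per gene, 34.5% hold CCAAT in either orientation, 16.3% hold TTTGAA and 4.39% hold TTTNNCGC. Called genes that rose also held these letters, such as CCAAT in Dusp28 and Plpp7, TTTGAA in Lmod2 and TTTNNCGC in Tbx3os1. A match is a description of the letters and not evidence of a bound factor.

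Genes of dividing cells were among those that fell in vehicle 24 h. Cip2a, an inhibitor of the phosphatase PP2A, stood at 12.2, 5.37, 7.42 and 10.6 TPM in day 7 replicates 1 to 4 and at 3.9, 1.66, 3.19 and 1.29 TPM in the vehicle libraries. The groups did not overlap, the lowest day 7 library being replicate 2 and the highest vehicle library replicate 1. Cip2a fell 3.54-fold, from 8.88 ± 3.06 to 2.51 ± 1.24 TPM (SD, n = 4), with a log2-table difference of −1.21 ± 0.25 (SE) and an adjusted p of 0.0472. Gas2l3, which links actin and microtubules during cytokinesis, fell 3.49-fold, from 2.71, 1.1, 1.48 and 2.21 TPM at day 7 to 0.914, 0.371, 0.596 and 0.266 TPM (adjusted p = 0.0472). Its groups did not overlap either.

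Mcm10, a factor that starts DNA replication, stood at 1.97, 0.784, 0.789 and 1.26 TPM at day 7 and at 0.414, 0.215, 0.535 and 0.159 TPM in vehicle (adjusted p = 0.0472). All vehicle libraries were below all day 7 libraries, and no fold is given because the vehicle mean was under 0.5 TPM. Arhgap11a, a GTPase-activating protein, fell 2.57-fold from 5.46 ± 2.24 to 2.13 ± 0.604 TPM (adjusted p = 0.0497). Sass6, a core protein of the centriole, fell 2.19-fold to 0.904 ± 0.0958 TPM (adjusted p = 0.0434), and its vehicle libraries lay within a narrow range, at 0.907, 0.768, 0.971 and 0.97 TPM. Haus6, a subunit of the augmin complex of the spindle, fell 1.61-fold to 2.39 ± 0.121 TPM (adjusted p = 0.0472).

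These genes were not members of the cell cycle list, which was read separately. Of its 34 tested genes none was called in either direction over all libraries, but all 34 had a lower mean in vehicle 24 h and 30 had an unadjusted p under 0.05 in that direction, against 8.5% of all genes. The median difference of the list was −1.34 in log2(TPM + 0.1), against −0.03 over all genes tested. In 14 of the 34 the TPM of the groups did not overlap with vehicle lower, a pattern seen in 4.61% of all genes. Kif11, the mitotic kinesin Eg5, had the smallest p of the list, with 8.62, 2.06, 3.04 and 3.98 TPM at day 7 and 1.99, 0.408, 1.58 and 0.409 TPM in vehicle (adjusted p = 0.0698). Day 7 replicate 1 was far above every other library for this gene. The proliferation marker Mki67 showed the same spread, at 6.95, 1.4, 2.53 and 2.85 TPM against 2.16, 0.308, 1.08 and 0.228 TPM (adjusted p = 0.131), and its groups overlapped.

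The libraries of both groups varied widely in this list. The median of its members, taken against the mean of the day 7 libraries, was 0.89, −0.53, −0.36 and 0.05 in day 7 replicates 1 to 4 and −0.76, −2.07, −0.78 and −1.75 in vehicle replicates 1 to 4. All vehicle medians were thus below all day 7 medians, with vehicle replicates 1 and 3 nearest to them. Without day 7 replicate 1, the library with the highest median, the list's median difference was −1.05. Leaving out vehicle 24 h replicate 3 was a choice made after the values were seen, and it favours larger differences. Without it, 15 of the 34 genes were called lower (1.32% of all genes tested were) and the median was −1.54. Among these 15 were the cyclins Ccna2 (adjusted p = 0.040) and Ccne2 (0.0425), the kinases Cdk1 (0.0415), Aurkb (0.0405) and Plk1 (0.0413), the topoisomerase Top2a (0.0405) and the nucleotide reductase subunit Rrm2 (0.031). With all libraries Ccna2 averaged 19.7 ± 12.3 TPM at day 7 and 4.84 ± 3.91 TPM in vehicle, and Cdk1 55.1 ± 22.8 and 20.7 ± 10.8 TPM. In bulk RNA, fewer cells of a kind and less RNA per cell cannot be told apart.

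CCAAT was present in 21 of 27 promoters matched for the list (77.8%), TTTGAA in 8 (29.6%) and TTTNNCGC in 6 (22.2%). These shares can be read beside those of all promoters given with the sequences.

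Sterol synthesis was the second group with lower levels. Hsd17b7, a reductase of cholesterol synthesis, stood at 10.9, 7.99, 11 and 10.1 TPM at day 7 and at 5.03, 5.56, 6.64 and 5.21 TPM in vehicle. The groups did not overlap, and vehicle replicate 3 was the vehicle library nearest to day 7. Hsd17b7 fell 1.78-fold, with a log2-table difference of −0.54 ± 0.10 (SE) (adjusted p = 0.0468). It was the 1 called gene among 24 tested of the sterol list. In that list 23 of 24 genes had a lower mean, 15 had an unadjusted p under 0.05 with vehicle lower (8.5% of all genes did), and the median difference was −0.52 in log2(TPM + 0.1).

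The list runs through the pathway. Hmgcs1, the enzyme that makes HMG-CoA, had 107, 74.5, 93.2 and 93.9 TPM at day 7 and 58.8, 52.7, 67.1 and 50.9 TPM in vehicle, without overlap (adjusted p = 0.0832). Further along the pathway, Sc5d averaged 30 ± 3.63 and 20.1 ± 1.08 TPM (adjusted p = 0.0537) and the cyclase Lss 12.2 ± 1.96 and 6.42 ± 1.95 TPM (adjusted p = 0.0758), both without overlap. Dhcr7 was the exception, with a mean of 26.7 TPM at day 7 and 27.1 TPM in vehicle (adjusted p = 0.921).

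Vehicle replicate 3 was again nearest to day 7, with a list median of −0.13 against −0.55, −0.68 and −0.75 in vehicle replicates 1, 2 and 4. Day 7 replicates 1 to 4 had list medians of 0.22, −0.23, 0.02 and 0.05. Vehicle replicate 3 was thus above day 7 replicate 2, and the list medians of the groups overlapped. Leaving out vehicle replicate 3 was chosen after the values were seen and favours larger differences. Without it, 6 genes were called lower (1.32% of all genes tested were), Hsd17b7, Sc5d, Lss, Sqle and Fdft1 among them. In 19 of the 24 the groups did not overlap with vehicle lower, as in 8.02% of all genes. The list's median difference was then −0.68, against −0.47 without day 7 replicate 1. CCAAT was present in 15 of 16 promoters matched (93.8%), and the sterol element TCACNCCAC in 1 (6.25%), against 1.04% of all promoters. Of 15 genes of fatty acid synthesis, which share regulators with the sterol genes, none was called. An unadjusted p under 0.05 was reached by 6 with vehicle lower (8.5% of all genes did) and by none with vehicle higher (7.22%). Acly, the enzyme that supplies cytosolic acetyl-CoA, averaged 31 ± 6.7 TPM at day 7 and 22.3 ± 2.81 TPM in vehicle (adjusted p = 0.109).

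A gene of one-carbon metabolism was also among those that fell. Aldh1l2, a mitochondrial enzyme of folate metabolism, stood at 7.63, 3.18, 4.86 and 5.73 TPM at day 7 and at 2.23, 1.94, 2.88 and 1.52 TPM in vehicle, without overlap. It fell 2.5-fold, with a log2-table difference of −0.85 ± 0.15 (SE) (adjusted p = 0.0434). Of 28 genes in the list of the integrated stress response and amino acid synthesis, in which Aldh1l2 was not included, none was called, 11 had an unadjusted p under 0.05 with vehicle lower and 3 with vehicle higher. Over all genes tested, 8.5% had such a p with vehicle lower and 7.22% with vehicle higher. The median difference of the list was −0.27 in log2(TPM + 0.1).

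The genes of that list with an unadjusted p under 0.05 and vehicle lower were mainly biosynthetic enzymes. Psat1, of the serine pathway, had 125, 98.4, 116 and 129 TPM at day 7 and 59.5, 57.5, 94.9 and 61.1 TPM in vehicle (adjusted p = 0.0525). Vehicle replicate 3 lay just under the lowest day 7 library and far above the other vehicle libraries. Phgdh, the first enzyme of the same pathway, had 97.6, 63.1, 86.2 and 84.1 TPM at day 7 and 36.3, 42.9, 80.6 and 48 TPM in vehicle, where replicate 3 overlapped with day 7 (adjusted p = 0.0935). Asns, which makes asparagine, averaged 34.3 ± 3.93 and 25.4 ± 6.36 TPM (adjusted p = 0.151). Of the transcription factors of the response, Atf4 averaged 328 and 293 TPM (adjusted p = 0.561), and Ddit3 33.9 ± 0.66 and 40.8 ± 3.47 TPM (adjusted p = 0.162). Leaving out vehicle replicate 3 was chosen after the values were seen and favours larger differences. Without it, 7 genes of the list were called lower (Psat1, Phgdh, Psph, Mthfd2, Asns, Pycr1 and Cth) and none higher. Over all genes tested, 1.32% were then called lower and 0.701% higher. TGATGNAA, an amino acid response element, was in 7 of 26 promoters matched (26.9%), against 3.53% of all promoters.

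**Figure D2:**
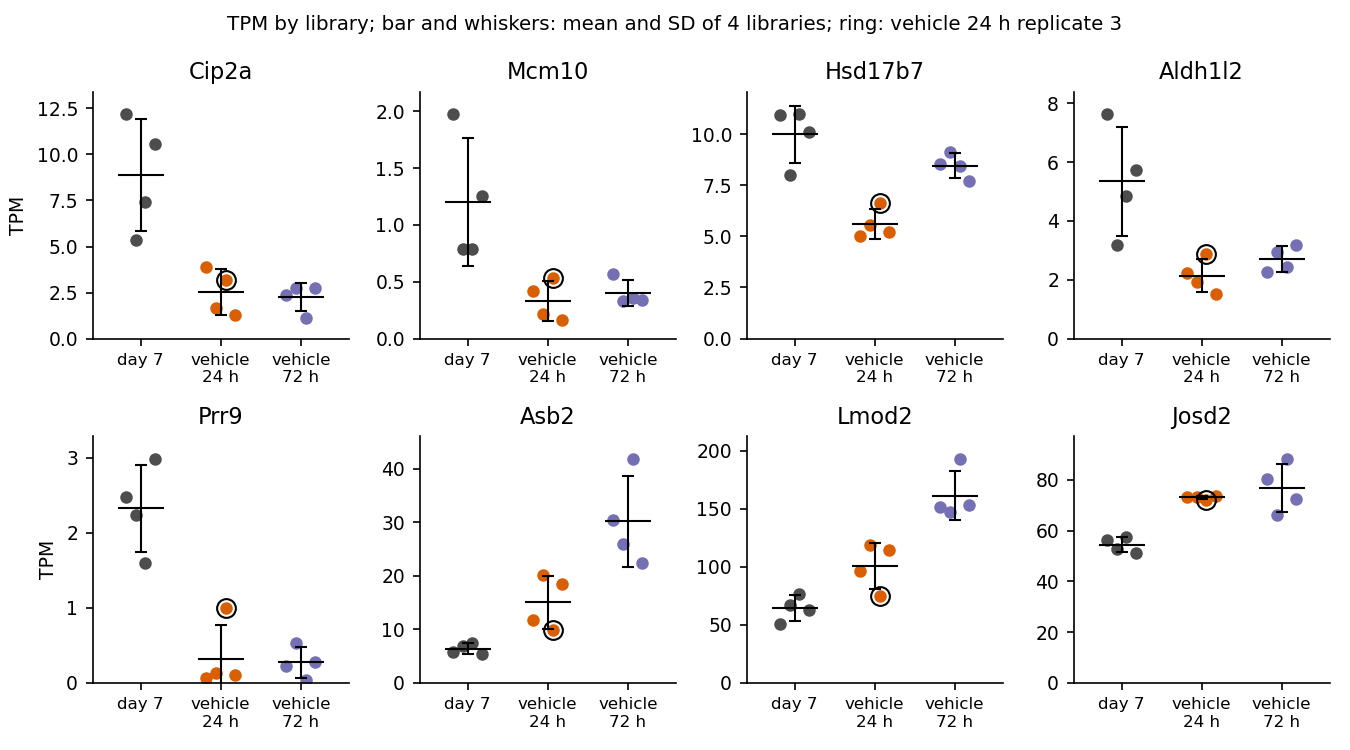
TPM of 8 called genes in each library of day 7, vehicle 24 h and vehicle 72 h (4 points a group; the bar and whiskers are the mean and SD, and the ring is vehicle 24 h replicate 3). Cip2a, Mcm10, Hsd17b7, Aldh1l2 and Prr9 were lower and Asb2, Lmod2 and Josd2 higher at 24 h; the ringed library was the vehicle library nearest to day 7 for each of them but Cip2a.

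Sarcomere genes lay on the higher side. Lmod2, which nucleates actin and acts at the pointed end of the thin filament, stood at 50.3, 67.3, 76.8 and 62.6 TPM at day 7 and at 96.2, 119, 75.2 and 114 TPM in vehicle. Vehicle replicate 3 lay just below day 7 replicate 3, so the groups overlapped by 1 library. Lmod2 rose 1.57-fold, from 64.2 ± 11 to 101 ± 19.8 TPM (adjusted p = 0.0472). It was the 1 called gene among 44 tested of the sarcomere list, of which 42 had a higher mean, 15 an unadjusted p under 0.05 with vehicle higher (7.22% of all genes did) and none with vehicle lower. The median difference was 0.33 in log2(TPM + 0.1), and in 6 genes the groups did not overlap with vehicle higher (2.87% of all genes).

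Acta1, skeletal muscle α-actin and among the most abundant transcripts of these cells, had 3036, 2770.2, 3299.8 and 2783 TPM at day 7 and 4964, 5284, 3628 and 5534 TPM in vehicle. The groups did not overlap, and replicate 3 was the lowest vehicle library (adjusted p = 0.0659). Among the myosin heavy chains, the neonatal Myh8 averaged 36.6 ± 10.8 and 65.8 ± 22.6 TPM (adjusted p = 0.0807), the fast Myh4 27.5 ± 7.86 and 49.6 ± 21.2 TPM (adjusted p = 0.319), and the fast Myh1 218 ± 47.9 and 304 ± 64 TPM (adjusted p = 0.153). The embryonic Myh3 and the slow Myh7 were the 2 members with a lower mean, Myh3 at 189.6 ± 44.8 TPM at day 7 and 181 ± 27.3 TPM in vehicle (adjusted p = 0.973). The sign of the Myh3 difference turned under several alternatives. Leaving out vehicle replicate 3 was chosen after the values were seen and favours larger differences. Without it, Acta1, Myh2, Myh8 and Lmod2 were called higher (0.701% of all genes tested were) and the median difference was 0.44. Without day 7 replicate 1 the median difference was 0.39. CAGCTG, an E-box, was in 12 of 34 promoters matched for the list (35.3%), against 12.8% of all promoters.

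Genes of myogenesis and calcium handling had no calls. Of 19 myogenic regulators and fusion genes none was called. An unadjusted p under 0.05 was reached by 3 with vehicle higher (7.22% of all genes did) and by none with vehicle lower (8.5%). Myog, a transcription factor of terminal differentiation, averaged 1154 ± 164 TPM at day 7 and 1329.5 ± 128 TPM in vehicle (adjusted p = 0.505), and the fusion gene Mymk 738 ± 100.3 and 913 ± 80.2 TPM (adjusted p = 0.156). Igfn1, a protein of the sarcomere Z-disc region, had 3.72, 2.96, 3.85 and 3.51 TPM at day 7 and 14.2, 9.57, 5.06 and 10.7 TPM in vehicle without overlap, and missed the threshold (adjusted p = 0.109). Of 23 genes of excitation-contraction coupling none was called. Here 6 had an unadjusted p under 0.05 with vehicle higher (7.22% of all genes did) and 1 with vehicle lower (8.5%). Cacna1s, the voltage sensor of the T-tubule, averaged 23.3 ± 5.72 and 32.9 ± 2.91 TPM (adjusted p = 0.127).

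Asb2, a muscle-enriched substrate receptor of a cullin ubiquitin ligase that acts on filamins, was the gene of the ligase list that rose. It stood at 5.8, 6.91, 7.45 and 5.4 TPM at day 7 and at 11.8, 20, 9.88 and 18.4 TPM in vehicle, with every vehicle library above every day 7 library. It rose 2.35-fold, with a log2-table difference of 0.80 ± 0.16 (SE) (adjusted p = 0.0472). The atrophy ligases Trim63 and Fbxo32 were not called: Trim63 averaged 23.4 ± 4.44 and 32.4 ± 6.01 TPM (adjusted p = 0.143) and Fbxo32 18.9 ± 2.52 and 22.5 ± 7.19 TPM (adjusted p = 0.656). Of the list's 19 tested genes, 5 had an unadjusted p under 0.05 with vehicle higher, Asb2 and Trim63 among them, and none with vehicle lower. The shares over all genes tested were 7.22% with vehicle higher and 8.5% with vehicle lower.

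Josd2, Pde4dip, Plpp7 and 8 further genes rose by smaller factors than Asb2. Josd2, a deubiquitinase, had 56.3, 52.8, 57.6 and 51.1 TPM at day 7 and 73.4, 73.1, 72.2 and 73.7 TPM in vehicle, and rose 1.34-fold (adjusted p = 0.0472). Its 4 vehicle libraries, replicate 3 included, were nearly level and all above day 7. Pde4dip, a scaffold of the Golgi and centrosome, rose 1.59-fold from 56.2 ± 13 to 89.2 ± 12.7 TPM (adjusted p = 0.0472). Plpp7, a muscle-enriched protein of the nuclear envelope, rose 1.55-fold from 14.2 ± 1.41 to 22 ± 2.4 TPM (adjusted p = 0.0472). Dusp28, Mfsd3, Tmub1, Btbd6, Gpr137, Akr7a5, Eif2b4 and Cyhr1 rose between 1.22-fold and 1.39-fold, with adjusted p from 0.0434 to 0.0472, and none of their groups overlapped. Eif2b4 is a subunit of the exchange factor of translation initiation factor eIF2.

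Tbx3os1, annotated as an antisense transcript of Tbx3, rose 4.75-fold, from 0.57, 0.636, 0.415 and 0.903 TPM to 1.86, 4.1, 1.9 and 4.11 TPM (adjusted p = 0.0434). Whether the authors' quantification used strand is not given in the sources used here, so reads of the antisense partner may not be told apart. Prr9, a proline-rich protein, shared the smallest adjusted p of all genes with the predicted gene Gm8773 (0.0247). It stood at 2.48, 2.24, 1.6 and 2.99 TPM at day 7 and at 0.0678, 0.13, 0.995 and 0.10 TPM in vehicle, where replicate 3 was far above the other 3 libraries and still below all of day 7.

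The remaining called genes that fell have varied roles. Piga, of glycolipid anchor synthesis, fell 1.68-fold, the deadenylase Cnot6 1.48-fold, the ubiquitin ligase subunit Wsb1 1.44-fold, and Brms1l, of a histone deacetylase complex, 1.31-fold, with adjusted p from 0.0434 to 0.0497. Hnrnpa3, an RNA-binding protein, fell 1.34-fold (adjusted p = 0.0472), a value that is uncertain because the gene has processed copies between which reads may be split. Gm42047, a predicted gene, fell 2.66-fold (adjusted p = 0.0472). The 5 further called genes outside the naming rule were looked up after their values were seen: Il1rl1, Gm8773 and Dlg1 were lower, and Gsdma and Eef1a2 were higher. All of these except Dlg1 averaged under 1 TPM in both groups.

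A few lists held genes that were called once vehicle replicate 3 was left out, a choice made after the values were seen. That library lay nearest to day 7 over many genes, so its omission favours larger differences. These calls are therefore given as a description and not as separate support. Over all genes tested, 0.701% were then called higher and 1.32% lower. Txnip, a glucose-induced inhibitor of thioredoxin, had 70.3, 73, 79.3 and 81.8 TPM at day 7 and 140.3, 121, 75.5 and 138 TPM in vehicle, with replicate 3 inside the day 7 range (adjusted p = 0.0623, and 0.00789 without that library). Dbp and Nr1d1, output and repressor genes of the circadian clock, averaged 14.9 ± 1.52 and 25.8 ± 6.24 TPM (adjusted p = 0.0674) and 22.7 ± 2.2 and 35.6 ± 10.5 TPM (adjusted p = 0.101). Both were called higher without replicate 3, with adjusted p of 0.0279 and 0.0306. The glycolytic genes Pgam1 and Eno1 and the lactate transporter Slc16a3 were called lower without it. Pgam1 averaged 422 ± 47.8 and 289 ± 66.9 TPM over all libraries (adjusted p = 0.0801), and Pgam1 and Eno1 have near-identical copies in the genome. Of 20 heat shock genes none was called. The small heat shock protein Hspb7 had 21.2, 16.9, 24.4 and 23.1 TPM at day 7 and 59.6, 41.5, 28.5 and 58.9 TPM in vehicle, without overlap (adjusted p = 0.0807, and 0.0401 without replicate 3).

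**Figure D3:**
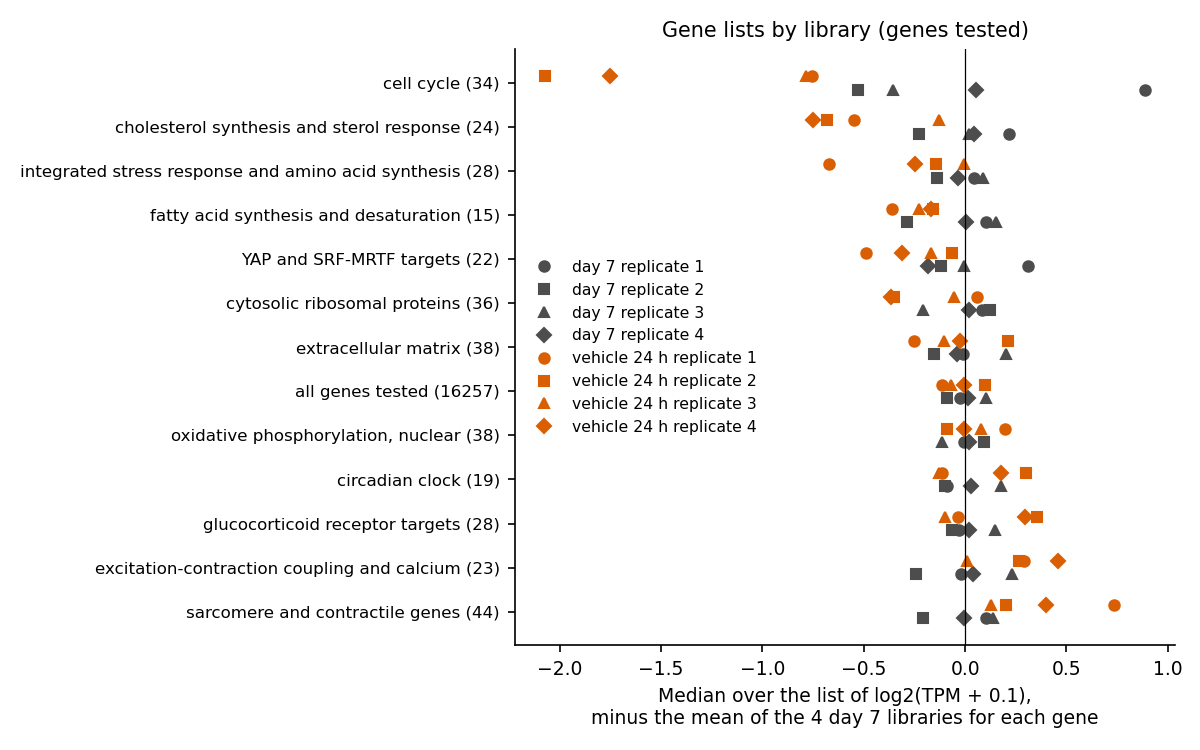
Median of each gene list in each library (log2(TPM + 0.1) minus the day 7 mean of the gene, x axis; grey, day 7; orange, vehicle 24 h; the shape gives the replicate), with the number of genes tested. In the cell cycle list all vehicle medians lie below all day 7 medians. In the sterol, integrated stress response and sarcomere lists the median of vehicle replicate 3 lies within the day 7 range. In the extracellular matrix list and over all genes the groups are mixed.

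The lists of ethanol metabolism, glucocorticoid receptor targets and extracellular matrix held no called gene. Of 15 genes of ethanol and aldehyde metabolism none was called, and Aldh2, the mitochondrial aldehyde dehydrogenase, averaged 341 ± 50.2 and 396 ± 100.1 TPM (adjusted p = 0.543). Of 28 glucocorticoid receptor targets none was called, but 21 had a higher mean in vehicle and 7 a lower one. Their median difference was 0.16 in log2(TPM + 0.1), against −0.03 over all genes tested. An unadjusted p under 0.05 was reached by 2 with vehicle higher (7.22% of all genes did) and by none with vehicle lower. Fkbp5, a strongly induced target, averaged 10.7 ± 1.44 TPM at day 7 and 10.2 ± 1.96 TPM in vehicle (adjusted p = 0.957), against 175 ± 34.6 TPM after 24 h of dexamethasone. Of 38 extracellular matrix genes none was called. In this list 2 had an unadjusted p under 0.05 with vehicle lower (8.5% of all genes did) and none with vehicle higher (7.22%). The growth factors Igf1 and Igf2 were not called (adjusted p = 0.757 and 0.978).

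The libraries carried the markers of their label. Summed over 16 markers of skeletal myotubes, day 7 libraries held 17138 to 18165 TPM and vehicle libraries 20162 to 26889 TPM, against 597 to 918 TPM in day 0 myoblasts, and none of the markers was under 0.5 TPM. These sums weigh abundant genes most: Mylpf averaged 9208 TPM at day 7 and 10926 TPM in vehicle. The 8 markers of reserve or undifferentiated cells summed to 282 to 408 TPM at day 7 and 267 to 295 TPM in vehicle. Of 12 leukocyte and endothelial markers, 11 were under 0.5 TPM in both groups. Between 12569 and 12899 genes reached 1 TPM in these 8 libraries, and the share of TPM in the 10 most abundant genes was 12.8% ± 0.83 at day 7 and 14.5% ± 1.32 in vehicle (exact two-sided permutation test, p = 0.114, the smallest possible being 0.0286). Depth is unknown, since neither deposited table keeps it.

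Vehicle replicate 3 lay nearer to day 7 than the other vehicle libraries over many genes. On genes that differed at least 1.5-fold between the groups when a library was left aside, the median gene of vehicle replicate 3 had gone 33.7% of the way from day 7 to the other vehicle libraries (588 genes), against 49.1% for replicate 1 (425 genes), 109% for replicate 2 (325 genes) and 141% for replicate 4 (268 genes). The genes thus differed for each library. For day 7 replicates 1 to 4, on the way from vehicle to the other day 7 libraries, the values were 128%, 54.2%, 70.3% and 97.6%. Leaving out replicate 3 raised the number of called genes from 34 to 328 (2.02%), 114 higher and 214 lower, and all 34 remained called in the same direction. Leaving out vehicle replicate 1 gave 188 calls, again with all 34 among them. Leaving out vehicle replicate 2 or 4, or day 7 replicate 1 or 4, gave 0 calls by limma, with 1937 to 2361 genes at an unadjusted p under 0.05. Without day 7 replicate 3 there were 4 calls, and without day 7 replicate 2 there were 38. On log2(TPM + 0.1) limma called 4 genes (0.0262%), and 166 without vehicle replicate 3.

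The called genes also differed in base composition. Those that rose had a GC content of 48.6% to 62.5% in their longest transcript (median 57.7%) and those that fell 37.8% to 50.6% (median 43.5%), against a median of 49.3% over all genes tested. Across genes, the difference between the groups had a Spearman correlation of 0.30 with GC content; genes are not independent replicates. With genes ranked by GC and cut into 5 equal groups, the gradient from the lowest to the highest group, in log2 units against the mean of the 8 libraries, was −0.10 ± 0.11 at day 7 and 0.11 ± 0.14 in vehicle (exact two-sided permutation test, p = 0.0857), most positive in vehicle replicate 3 at 0.29 and most negative in day 7 replicate 4 at −0.26. After each library was corrected for GC content, limma called 3 genes (0.0185%), Prr9 and Gm8773 lower among them, and 296 without vehicle replicate 3 (1.83%). With this correction the list medians were −1.26 for the cell cycle list, −0.46 for the sterol list and 0.32 for the sarcomere list.

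**Figure D4:**
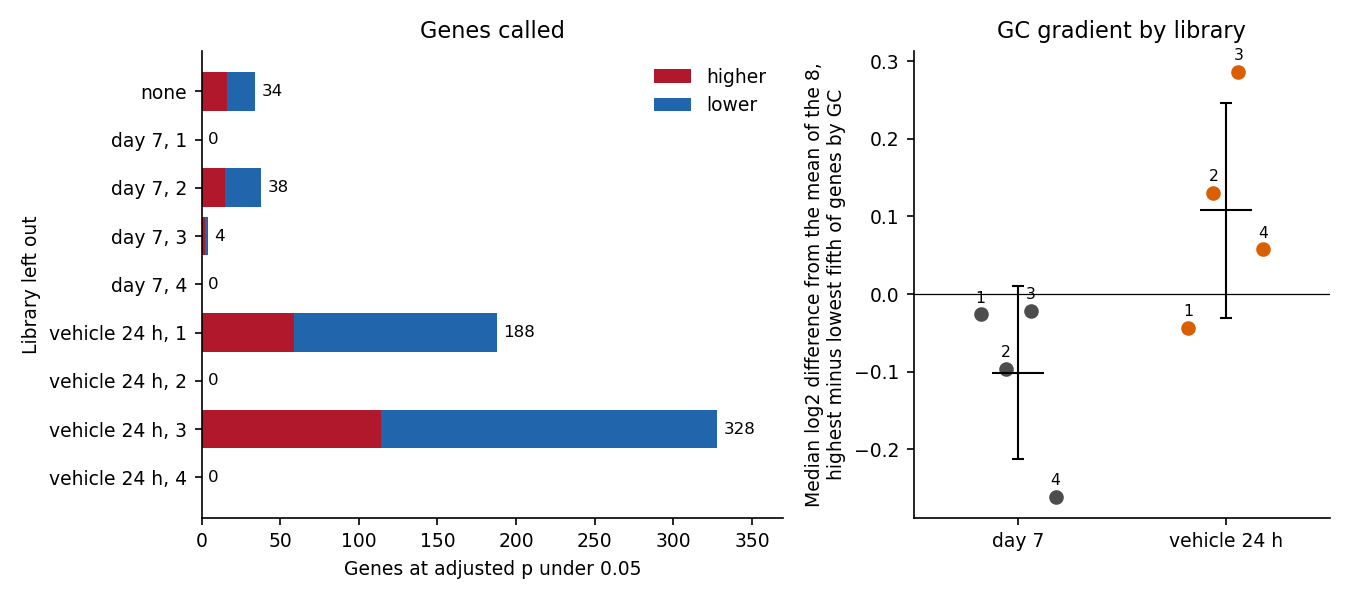
Left, genes called at an adjusted p under 0.05 when each library is left out of the fit (x axis, number of genes; red higher, blue lower in vehicle 24 h). Right, the GC gradient of each library (points, numbered by replicate; bar and whiskers, mean and SD): the count runs from 0 to 328, and vehicle replicate 3 has the steepest positive gradient, 0.29.

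The levels 48 h later, in the same medium, were set beside these. The comparison of vehicle 72 h with vehicle 24 h shares the vehicle 24 h libraries, so only values are given. It had 709 calls (4.36%), 434 higher (2.67%) and 275 lower (1.69%) at 72 h, a count that ranged from 2 without vehicle 24 h replicate 3 to 1751 without vehicle 24 h replicate 2, and moved by over 1.5 times without any 1 of the 8 libraries except vehicle 72 h replicate 4. Asb2 stood at 30.5, 26, 41.9 and 22.3 TPM at 72 h, above its 24 h mean of 15 TPM (adjusted p = 0.0385). Lmod2 was at 151, 147, 193 and 154 TPM at 72 h, above every 24 h library (adjusted p = 0.0329). Among genes of dividing cells, Cip2a averaged 2.51 ± 1.24 TPM at 24 h and 2.24 ± 0.772 TPM at 72 h (adjusted p = 0.76), and the cell cycle list had no call and a median difference of −0.05.

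The metabolic genes Hsd17b7, Psat1 and Aldh1l2 were not called between 24 h and 72 h, and whether their courses differed was not tested. Hsd17b7 averaged 5.61 ± 0.722 TPM at 24 h and 8.46 ± 0.599 TPM at 72 h, where all libraries were above all 24 h libraries (adjusted p = 0.075). Psat1 averaged 68.3 ± 17.8 TPM at 24 h and 60 ± 12.6 TPM at 72 h (adjusted p = 0.272), and Aldh1l2 2.14 ± 0.573 and 2.71 ± 0.435 TPM (adjusted p = 0.607). Myh3 was lower at 72 h, at 128 ± 15.3 TPM (adjusted p = 0.0462), and Eef1a2, the muscle and neuron form of the elongation factor, was at 0.282 ± 0.068 TPM at 24 h and 1.2 ± 0.468 TPM at 72 h (adjusted p = 0.00972).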

How the data were processed

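Polyadenylated RNA of 24 C2C12 libraries was sequenced with a stranded kit, per the labels' protocols. The submitters' processing notes name kallisto 0.51.1, Salmon and DESeq, without their roles, and the build GRCm39. The authors deposited TPM values and a table of log2-scale values normalised by a method not given in the sources used here. In the latter, differences were 0.64 times those of log2 TPM. Symbols came from an annotation (GENCODE M21, GRCm38), which matched 48291 of 48544 genes. GC content was that of its longest transcripts (16214 of 16257 genes).

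Genes were tested with limma 3.58.1 (limma-trend, R 4.3.3) on the log2-scale values of all 24 libraries, with 1 mean per group. Genes with a back-transformed value of 10 or more in at least 4 libraries were kept (16257). P-values were adjusted over them by Benjamini-Hochberg, and genes under 0.05 were called. Folds are given where both means reached 0.5 TPM. The 41 gene lists, the members and the alternatives were chosen with earlier results of these data known. Genes were named when called, present at 1 TPM and not overlapping between groups, as called members of a list, as the member of a list with the smallest p, or from a set of 19 fixed names. Further list members given in the text, such as Acta1, Phgdh, Atf4, Lss, Hspb7, Fth1 and the cyclins, were chosen after their values were seen. Alternatives changed the table, pseudocount (0.1 or 1), filter, normalisation, libraries, replicate block and spread estimate. GC correction (lowess, span 0.3) and joint omissions were added after seeing the data. Values of some members of the lists are not reported here.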

Additional observations from a re-analysis of the deposited data

Results flagged for a closer look

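Single libraries that stood apart from the other 3 of their group, by Dixon's test at its 95% critical value, were found in 16 of 184 groups of values (named genes and library measures); chance marks about 1 in 20. In vehicle 24 h replicate 3 these were Prr9 at 0.995 TPM, Psat1 at 94.9 TPM and mt-Nd6 at 59.1 TPM. In day 7 replicate 1 they were Dusp28 at 27.2 TPM, Cnn1 at 7.04 TPM, Il15 at 2.59 TPM, mt-Nd6 at 140.0 TPM and Igf2 at 65.8 TPM. In day 7 replicate 3 they were Psmd4 at 196 TPM, Dnajb11 at 113 TPM, Acadvl at 84.6 TPM, Mymk at 888 TPM and Gm8773 at 0.474 TPM. The others were Pax7 at 1.56 TPM in day 7 replicate 4, Acadvl at 81.6 TPM in vehicle 24 h replicate 1 and Pdk1 at 21.8 TPM in vehicle 24 h replicate 2.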

How the results depend on the processing

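The number of called genes was the result that changed most; the cause was not tested. Against 34 calls, it was 4 on log2(TPM + 0.1), 5 on log2(TPM + 1), 4 with no filter, 0 with only the 8 libraries (2496 at an unadjusted p under 0.05) and 11 without both replicate 1 libraries at 72 h. With the replicate number as a block it was 109, 53 higher and 56 lower, and all 34 remained called. Same-numbered libraries of day 7 and vehicle 24 h had deviations correlated at 0.49, 0.13, −0.01 and 0.14, 2 of the 4 day 7 libraries correlated best with their own number, and the labels name nothing that the numbers share, so the pairing was not taken as part of the design. Omitting 1 library at a time gave 0 to 328, and omitting a vehicle 72 h library, which enters only through the spread, gave 4, 57, 223 and 3 for replicates 1 to 4. Added after seeing the data, omitting vehicle 24 h replicate 3 and both replicate 1 libraries at 72 h gave 374, log2(TPM + 0.1) without vehicle 24 h replicate 3 gave 166 and without day 7 replicate 1 gave 1, and GC correction gave 3 on the log2 table, 2 on log2(TPM + 0.1) and 296 on the log2 table without vehicle 24 h replicate 3. Over these alternatives the 34 called genes kept their direction in all 808 values and their call in 358. For vehicle 72 h against vehicle 24 h, 709 calls became 270 on log2(TPM + 0.1), 380 without both replicate 1 libraries at 72 h, 1067 with the replicate block, 94 with no filter and 2 to 1751 without 1 library. Of 1289 values for 54 named genes not called, 63 passed the threshold and 16 changed sign. For Myh3 the log2 difference of −0.013 became 0.026 after quantile normalisation, 0.0062 with median centring of TPM, 0.027 without vehicle 24 h replicate 3 together with the 72 h replicates 1, 0.029 on log2(TPM + 0.1) without vehicle 24 h replicate 3, 0.037 on it without day 7 replicate 1, and −0.11 to 0.049 without 1 library. For Igf2 it was −0.022 and −0.026 after GC correction of the log2 table and of log2(TPM + 0.1), and −0.22 to 0.31 without 1 library; for Fkbp5 it was −0.083 to 0.036 without 1 library. The share of TPM in mitochondrially encoded genes differed by 0.00380 percentage points (exact permutation p = 1), and by −0.602 to 0.550 points without 1 library. Neither table keeps depth, so low levels such as those of Mcm10 carry no counting interval.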

Other observations

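Some lists moved in small steps without a called gene. Of 36 cytosolic ribosomal protein genes, 35 had a lower mean in vehicle 24 h, with a median of −0.19 in log2(TPM + 0.1), but vehicle replicates 1 and 3 had list medians of 0.06 and −0.05 and replicates 2 and 4 had −0.35 and −0.37. Of 38 nuclear genes of oxidative phosphorylation, 32 had a higher mean, the median was 0.04, and in 5 the groups did not overlap with vehicle higher (2.87% of all genes). Inhba, a subunit of activin A, had 15.9, 8.46, 11.6 and 11.4 TPM at day 7 and 6.44, 7.77, 5.22 and 4.35 TPM in vehicle, without overlap (adjusted p = 0.0704). It averaged 11.3 ± 3.8 TPM at 72 h. Fth1, the heavy chain of ferritin, averaged 2665 ± 68.5 TPM at day 7 and 3632 ± 479 TPM in vehicle, without overlap (adjusted p = 0.204). The myokine Il15 had 2.59, 1.43, 1.31 and 1.43 TPM at day 7 and 8.73, 2.45, 1.9 and 3.64 TPM in vehicle, where replicate 1 was far above the others (adjusted p = 0.15).

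Spp1, the matrix protein osteopontin, was the main part of the osteoblast marker sum, which ran from 887 to 2152 TPM at day 7 and from 914 to 3861 TPM in vehicle. It had 2115, 1045, 857 and 1336 TPM at day 7 and 3828, 2233, 891 and 2667 TPM in vehicle, and the order of the libraries did not separate the groups (adjusted p = 0.314). Markers of adipocytes summed to 59.7 to 76.2 TPM at day 7 and 69.3 to 81.5 TPM in vehicle, with 10 of 16 under 0.5 TPM in both groups, Adipoq and Plin1 among them. Smooth muscle markers summed to 1732 to 2888 TPM and 1686 to 2188 TPM, and fibroblast and tendon markers to 420 to 778 TPM and 486 to 937 TPM.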
